A study of Mus musculus with 7 samples.

Results

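The 10 genes described here encode the transcription factors at the core of mouse embryonic stem cell identity: Pou5f1 (Oct4), Sox2, Nanog, Esrrb, Klf2, Klf4, Klf5, Tbx3, Tfcp2l1 and Zfp42 (Rex1). The rule lists them by name, as 10 of the 55450 genes of the annotation. All 10 had reads, as did 27888 annotated genes in all. Read from both strands, they gave 3458 sense and 3466 antisense reads that matched 1 gene each, and 2374 of the antisense reads came from Klf5.

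These factors hold stem cells in a state from which every tissue of the embryo can form. Pou5f1 and Sox2 bind neighbouring DNA sites as partners, Nanog joins them at many enhancers, and all of them bind at their own genes as well as each other's. Esrrb, the Krüppel-like factors, Tbx3 and Tfcp2l1 form an outer circuit, part of which answers to the cytokine LIF, and Zfp42 is a common marker of the naive state. Ezh2, the protein that was immunoprecipitated, is the methyltransferase of Polycomb repressive complex 2 (PRC2), which silences developmental genes and has been studied as an RNA-binding complex.

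The series is RNA immunoprecipitation sequencing (RIP-seq), in which an antibody recovers a protein from lysed nuclei and the RNA bound to or carried along with that protein is sequenced as cDNA. There are 7 labelled libraries, and LIF was in the medium of the cultured mouse embryonic stem cells. In 5 of them RNA was recovered with anti-Ezh2 from 129X(M.castaneusX129) cells with no labelled mutation: a first library, its technical replicate, a biological replicate, and 2 lanes of deeper sequencing from each of the first sample and the biological replicate. The control libraries were 1 with anti-Ezh2 from Ezh2 null cells, labelled M.musculus, and 1 with IgG from 129X(M.castaneusX129) cells.

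The deposited table holds 6540936 distinct read sequences with a count each, 34072479 reads in all, and nothing in it ties a count to a library. All values below therefore describe 1 pool, which may hold 1 library or several. Ezh2 could not be set against IgG or Ezh2 null cells, the pool has no replicates, and enrichment over background was not measured. Intervals are exact 95% intervals (Clopper-Pearson for percentages, Poisson for levels), and they cover counting error only, because copies made by PCR cannot be told from separate molecules. Where a count is 0, the share it allows is that of 3 counts in the same total. Because of such copies, the number of distinct start positions is given beside the number of reads. A start is the first matched base of the read, so along the mRNA it is the 3′ end of the match for sense reads and the 5′ end for antisense reads.

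The sequences that carry the strand findings are the highest antisense start positions of Klf5 and Pou5f1 and a Zfp42 site that a pseudogene nearly copies. Each is shown 5′ to 3′ on the strand of the mRNA, as the first 34 bases matched, from GENCODE M21 transcripts on the build GRCm38. In the Klf5 and Zfp42 sites, capitals mark the bases at which the nearest annotated pseudogene differs. In the Pou5f1 sites, capitals mark exon 3, so the change of case is the exon junction.
Klf5 site 1, antisense, chr14:99302108-99302141: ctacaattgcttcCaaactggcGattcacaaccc
Klf5 site 2, antisense, chr14:99301549-99301582: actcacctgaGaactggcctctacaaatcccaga
Pou5f1 site 1, antisense, chr17:35509204-35509421: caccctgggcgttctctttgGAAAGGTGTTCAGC
Pou5f1 site 2, antisense, chr17:35509210-35509427: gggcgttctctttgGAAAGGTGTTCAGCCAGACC
Zfp42 site, sense, chr8:43296403-43296436: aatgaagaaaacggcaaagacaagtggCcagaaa

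With positions counted from 1 at the 5′ end of each printed sequence and the factor's base given first, Klf5 site 1 differs from the pseudogene Gm6007 by C14G and G23A. Klf5 site 2 differs from the pseudogene Gm2203 by G11A. Pou5f1 site 1 differs from the pseudogene Gm6539 by C10T, A23G and G25A. The Zfp42 site differs from Zfp42-ps1 by C28T. A deposited read is the complement of the RNA it came from, so a read from an antisense RNA has the letters of the mRNA. The most abundant deposited reads at the first 3 of these sites are shown next, with the 6 leading bases that were not matched in lower case and the matched bases in capitals.
Klf5 site 1, 848 of 1087 reads: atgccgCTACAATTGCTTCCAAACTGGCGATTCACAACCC
Klf5 site 2, 192 of 418 reads: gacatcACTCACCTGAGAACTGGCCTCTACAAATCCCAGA
Pou5f1 site 1, 32 of 88 reads: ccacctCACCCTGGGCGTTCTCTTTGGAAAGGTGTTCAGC

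Levels of the sense strand are given as reads per kb of exons and per 1000000 searched reads (RPKM). Zfp42 was highest at 10.5 RPKM (9.71 to 11.4, 624 reads), followed by Pou5f1 at 6.05 RPKM (5.49 to 6.65, 429 reads) and Klf4 at 4.30 RPKM (3.89 to 4.73, 413 reads). Tfcp2l1 at 3.44 RPKM (3.23 to 3.66, 1023 reads) and Sox2 at 3.24 RPKM (2.81 to 3.71, 210 reads) had overlapping intervals. Below them came Klf5 at 2.23 RPKM (2.01 to 2.47, 366 reads) and Esrrb at 1.27 RPKM (1.12 to 1.45, 243 reads). Nanog at 0.523 RPKM (0.369 to 0.721, 37 reads), Klf2 at 0.446 RPKM (0.292 to 0.654, 26 reads) and Tbx3 at 0.417 RPKM (0.334 to 0.514, 87 reads) could not be ordered within counting error. By reads, most of the order is thus clear of counting error, and the lowest factors lie more than an order of magnitude below Zfp42. These intervals do not cover PCR copies or the division of reads between a gene and its near copies, and an order by start positions was not made. The 1023 reads of Tfcp2l1 began at 52 positions over 9438 bases of exons, and the 210 of Sox2 at 25 positions over 2057 bases.

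At least 50 sense reads were found for 8 of the 10 factors, all but Nanog and Klf2, against 29.3% of 21938 nuclear protein-coding genes. The median level of the factors was 2.74 RPKM, and that of all nuclear protein-coding genes was 0.0882 RPKM. Zfp42 ranked 361 and Pou5f1 642 among the 21938 genes by RPKM, and Tbx3 ranked 5696. In bulk RNA of this kind, fewer cells that express a gene and less RNA per cell cannot be told apart.

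**Figure D1:**
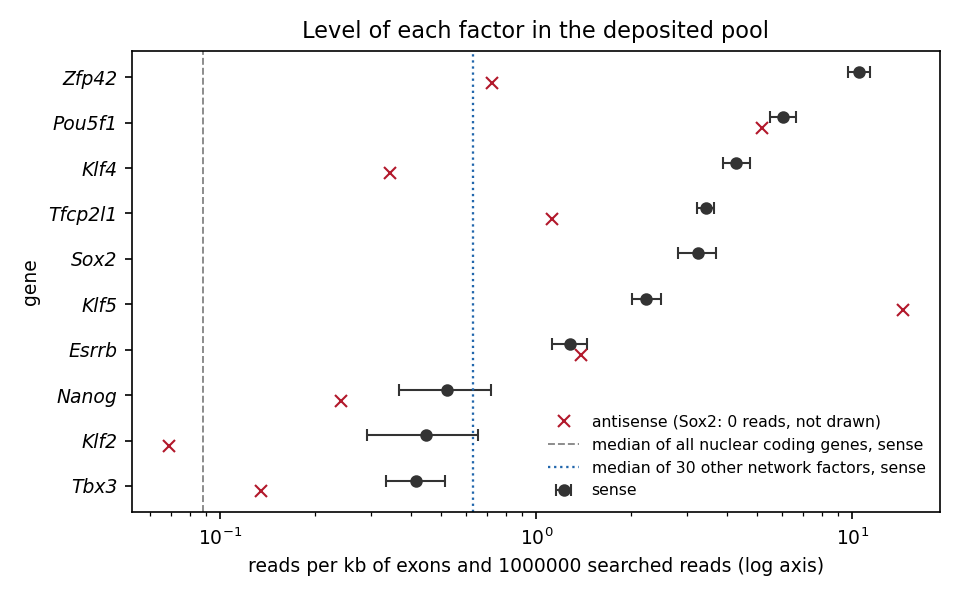
Level of each factor on a log axis, in reads per kb of exons and per 1000000 searched reads, with circles for the sense strand (bars are exact Poisson 95% intervals) and crosses for the antisense strand. Sense levels run from 0.417 for Tbx3 to 10.5 for Zfp42, and Klf5 is the factor whose antisense level, 14.5, lies far above its sense level.

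The strand of the reads divided the factors. Antisense reads made up 50.1% (48.9 to 51.2%) of the reads of the 10 factors, but 26.1% (24.8 to 27.5%) without Klf5, and 13.9% of the reads of all nuclear genes. Counted by distinct start positions, the antisense share was 37.9% (34.2 to 41.8%) for the factors, 31.25% (27.3 to 35.5%) without Klf5, and 25.4% for all nuclear genes. The median antisense share was 24.6% over the 9 factors with at least 50 reads and 17.7% over the 9097 nuclear genes with as many. The sum over the factors by reads is therefore mostly a property of Klf5, and the typical factor stood closer to the typical gene. Without Klf5 the share of the other factors together still lay above that of all nuclear genes, by reads and by positions.

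Among these 9 factors, Klf5 alone had an antisense share with its interval above 50%, that is 1 of 9 against 16.5% of the 9097 nuclear genes. The interval lay below 50% for 7 of 9 (Pou5f1, Sox2, Nanog, Klf4, Tbx3, Tfcp2l1 and Zfp42), against 73.0% of the genes. When start positions were counted in place of reads, the interval lay above 50% for 2 of 9, Klf5 and Esrrb, against 4.70% of the genes. Both read counts are near the background share, and the count by positions rests on 2 genes.

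**Figure D2:**
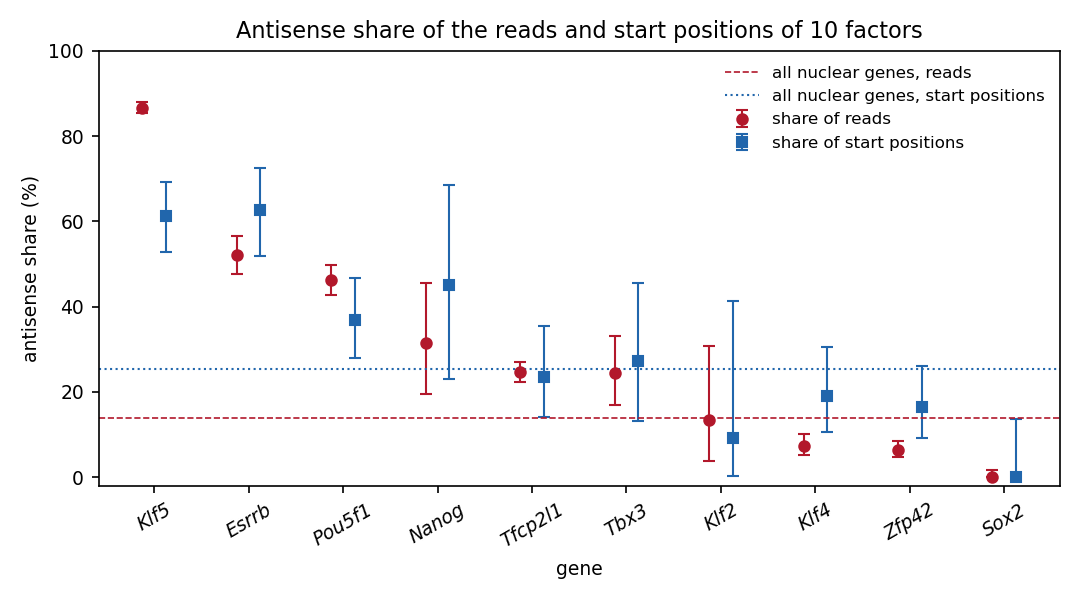
Antisense share in percent for each factor, by reads (red circles) and by distinct start positions (blue squares), with exact Clopper-Pearson 95% intervals and lines for all nuclear genes (red dashed, reads, 13.9%; blue dotted, positions, 25.4%). Klf5 stands highest by reads at 86.6%, Esrrb and Klf5 are above 60% by positions, and Sox2 is at 0 by both.

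Klf5, a zinc-finger factor that supports self-renewal, was read mainly from the antisense strand. The sense strand gave 366 reads at 57 start positions and the antisense strand 2374 reads at 90, an antisense share of 86.6% (85.3 to 87.9%) by reads and 61.2% (52.8 to 69.1%) by positions. Of the antisense reads, 1087 began at site 1 and 418 at site 2, which hold 45.8% and 17.6% of them. With the highest position of each strand left out the share was still 79.2% (77.1 to 81.2%), so the excess did not come from site 1 alone. The highest sense position, base 99301627 in exon 2, held 28 reads.

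The antisense reads of Klf5 were confined almost wholly to exon 2 (chr14:99301381-99302254, plus strand, coding), which held 2333 of 2374, or 98.3%, at 74 positions. The sense reads were spread differently: exon 2 held 41.3% of them, exon 4 (chr14:99313151-99315036, the end of the coding sequence and the downstream untranslated region) 48.4%, and exons outside the longest coding isoform 9.84%. No antisense read of Klf5 crossed an exon junction, 0 of 2374, which allows a share of up to 0.126%. Few sense reads did so either, 2 of 366 (0.546%, 0.0662 to 1.96%) at 1 position. Junction-crossing windows are 2.72% of the 34-base windows of Klf5 transcripts.

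Processed pseudogenes, intronless copies of an mRNA, complicate Klf5, because Gm6007 on chromosome 7 and Gm2203 on chromosome 15 both resemble it. A further 323 antisense reads matched Klf5 and Gm6007 equally well and were counted for neither. Gm6007 alone received 0 sense and 6 antisense reads and Gm2203 none. Of the 2374 antisense reads given to Klf5, 1710 had no other annotated gene within 1 further mismatch, and over such reads the antisense share was 82.8% (81.1 to 84.4%). Reads matched with 2 mismatches pass this check whatever their copies, because placements beyond 2 mismatches were not searched. Genes that overlap on the other strand were not counted in it. That a read given to Klf5 fits it better than any annotated copy follows from the assignment rule. At site 2, with 418 reads, the nearest annotated copy differs by 1 base, and copies outside the annotation were not searched.

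Pou5f1, the POU-domain factor without which embryonic stem cells cannot be kept, was read almost equally from both strands. The sense strand gave 429 reads at 70 positions and the antisense strand 368 at 41, an antisense share of 46.2% (42.7 to 49.7%) by reads and 36.9% (27.97 to 46.6%) by positions. Apart from 1 read, the antisense reads lay in the first 4 exons, 99.7% of them in coding sequence: exon 2 held 40.5% of them, exon 3 32.6%, exon 4 21.2% and exon 1 5.43%. None of the antisense reads given to Pou5f1 began in exon 5, the last, although some that began in exon 4 reached into it. Exon 5 held 212 of the 429 sense reads (49.4%), among them the 45 at the highest sense position (base 35510433), and exons 3 and 4 held 9.56% and 35.0%, so that both strands were read there.

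Many of the antisense reads of Pou5f1 matched joined exons of its mRNA. In all, 217 of 368, or 59.0% (53.8 to 64.0%), crossed an exon junction of Pou5f1, at 16 positions, against 135 of 429 sense reads (31.5%, 27.1 to 36.1%). Junction-crossing windows are 13.7% of the 34-base windows of Pou5f1, and over all nuclear protein-coding genes 12.02% of antisense and 21.1% of sense reads crossed a junction. By junction, 149 antisense reads joined exons 2 and 3 at 8 positions, 47 joined exons 3 and 4 at 2 positions, and 21 joined exons 4 and 5 at 6 positions. The highest antisense positions, sites 1 and 2 with 88 and 45 reads, both join exon 2 (which ends at base 35509223 of chromosome 17) to exon 3 (which begins at base 35509408). Of the 217 reads, 210 had no other annotated gene within 1 further mismatch, under the limits of that check given for Klf5. Whether they came from a spliced antisense RNA was not tested, and copies of Pou5f1 outside the annotation were not searched.

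The share of antisense reads that cross a junction depends on how an overlapping gene is treated. The noncoding gene Gm19553 (chr17:35509077-35510551, minus strand) covers all 121 bases of exon 2 and 170 of the 485 bases of exon 5, and a read inside it on that strand was given to it and not to Pou5f1, so the lack of antisense starts in exon 5 is in part set by this rule. It received 20 reads, of which 19 also match Pou5f1 in antisense, and 104 further antisense reads of Pou5f1 matched Gm19553 and the pseudogene Gm21054 equally well. Taking all of these together, 491 reads lay on the antisense strand of Pou5f1, of which 217 (44.2%, 39.7 to 48.7%) crossed a Pou5f1 junction, and they made up 52.2% (49.0 to 55.5%) of its 940 reads. The antisense share by the assignment rule, 46.2%, is therefore the lower of these values. The sense count has its own limit: 255 of the 429 sense reads had no other annotated gene within 1 further mismatch, and over such reads of both strands the antisense share was 54.4% (50.2 to 58.6%). Gm19553 was not counted as another gene in this check.

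Esrrb, an orphan nuclear receptor that can replace Nanog in self-renewal, also had reads of both strands in near balance, but in another arrangement. The sense strand gave 243 reads at 34 positions and the antisense strand 265 at 57. The antisense share was 52.2% (47.7 to 56.6%) by reads and 62.6% (51.9 to 72.6%) by positions, so the interval spanned 50% by reads and lay above it by positions. The antisense reads were dispersed, and the highest of their positions (base 86520764 of chromosome 12) held 31. Of them 97.7% lay downstream of the coding sequence, 225 in exon 7 (chr12:86518821-86521625) at 49 positions. The sense reads had 2 equal highest positions of 51 reads, in the coding sequence of exon 5 (base 86506457) and downstream in exon 7 (base 86521071). No annotated pseudogene shared reads with Esrrb. All 508 of its reads had no other annotated gene within 1 further mismatch, under the limits of that check given for Klf5.

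**Figure D3:**
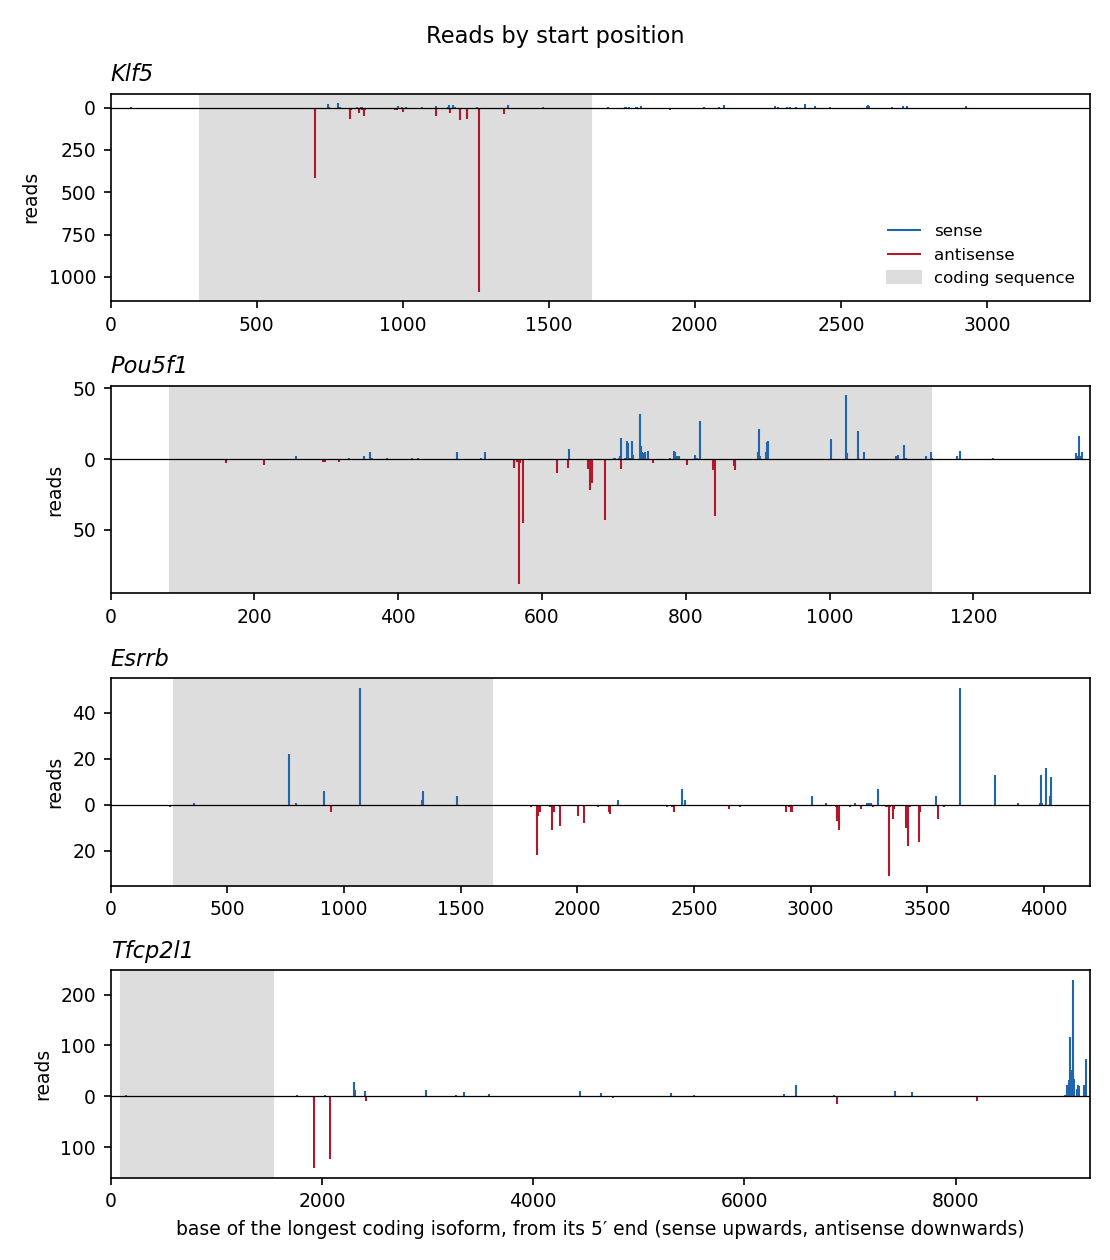
Reads by start position along the longest coding isoform of Klf5, Pou5f1, Esrrb and Tfcp2l1, in bases from the 5′ end, with sense reads upwards, antisense reads downwards and the coding sequence shaded. Antisense reads peak within the coding sequence in Klf5 (1087 at its highest position) and Pou5f1 (88), downstream of it in Esrrb (31) and Tfcp2l1 (142), and Tfcp2l1 sense reads gather at the 3′ end.

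Tfcp2l1, a grainyhead-related factor of the LIF pathway, had more sense reads than any other factor but most of them came from 1 end of a long transcript. The sense strand gave 1023 reads at 52 positions and the antisense strand 334 at 16, an antisense share of 24.6% (22.3 to 27.0%). The last 300 bases of its 9269-base transcript held 856 sense reads (83.7%, 81.3 to 85.9%) at 27 positions, against 4.68% of the sense reads of all nuclear protein-coding genes. The other factors had between 0% and 19.7% of their sense reads there, with Esrrb highest and Sox2 and Klf5 at 0 of 210 and 0 of 330 (which allow up to 1.43% and 0.909%).

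The highest sense position of Tfcp2l1, base 118685005 of chromosome 1 and 163 bases before the transcript end, held 229 reads. Of these, 218 were reads of 34 bases, a length other than the 36 and 40 bases of most reads in the table, in 16 distinct sequences. Tfcp2l1 had no other sense read of that length. Without them the position held 11 reads. The antisense reads of Tfcp2l1 were far from this end: 142 began at base 118677823 and 124 at base 118677979, both in the downstream untranslated region of exon 15, and these positions held 42.5% and 37.1% of them. Within the Tfcp2l1 locus on the other strand, the ribosomal RNA gene Gm22094 had 15 reads at 1 position.

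Sox2, the partner of Pou5f1, was the factor with reads of a single strand. It had 210 sense reads at 25 positions and no antisense read, which allows an antisense share of up to 1.43%. Its highest position (base 34651665 of chromosome 3) held 42 reads. The long noncoding gene Sox2ot, which spans Sox2 on the same strand, had 84 sense and 18 antisense reads of its own at other places. Sox2 has 1 exon, and 202 of its 210 reads (96.2%) lay downstream of the coding sequence, which makes up 46.7% of the transcript and held 3.81% of the reads.

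Klf4 and Zfp42 were read mainly in sense. Klf4, a zinc-finger factor used in reprogramming, gave 413 reads in sense at 55 positions and 33 in antisense at 13, an antisense share of 7.399% (5.15 to 10.2%). Its highest sense position (base 55527970 of chromosome 4) held 96 reads and its highest antisense position (base 55531979) held 8. Zfp42 gave 624 reads in sense at 71 positions and 43 in antisense at 14, a share of 6.45% (4.70 to 8.59%), and its highest positions held 91 sense reads (base 43295530 of chromosome 8) and 10 antisense reads (base 43296512). For both genes the antisense share by reads lay below the 13.9% of all nuclear genes, and by positions the intervals, 10.6 to 30.5% and 9.31 to 26.1%, took in the 25.4% of all nuclear genes.

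Tbx3, Nanog and Klf2 were too shallow for more than a coarse statement. Tbx3, a T-box repressor, gave 87 reads in sense at 24 positions and 28 in antisense at 9, an antisense share of 24.3% (16.8 to 33.2%). Base 119684119 of chromosome 5 held 30 of the sense reads, 34.5%, and base 119683859 held 15 of the antisense reads. The antisense gene Tbx3os1, which overlaps its start, had 0 sense and 34 antisense reads. Nanog had 37 sense and 17 antisense reads, a share of 31.5% (19.5 to 45.6%), with 9 reads at its highest sense position (base 122707859 of chromosome 6) and 6 at its highest antisense position (base 122707786). This share leaves out 17 sense and 268 antisense reads that Nanog shared with up to 3 other genes, so which strand prevailed in Nanog is not settled. Klf2 had 26 sense reads at 10 positions, 8 of them at base 72321100 of chromosome 8, and 4 antisense reads, all at base 72320135.

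How often sense reads gathered at 1 position depends on the cut. The highest sense position held at least 25% of the sense reads in 1 of the 8 factors with at least 50 sense reads, Tbx3, against 43.5% of 7030 nuclear genes. Klf4 (23.2%), Tfcp2l1 (22.4%), Esrrb (20.99%) and Sox2 (20%) lay not far below this cut. Zfp42 (14.6%), Pou5f1 (10.5%) and Klf5 (7.65%) were lower. Neighbouring positions were counted apart. In Klf4 the positions on either side of the highest, which held 96 sense reads, held 28 and 18. The highest antisense position held 11.7% of the antisense reads in Esrrb, 45.8% in Klf5 and 53.6% in Tbx3.

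Along the mRNA, most sense reads of the factors lay downstream of the coding sequence, and Tfcp2l1 gave 1018 of these 2092 reads. Of the 3458 sense reads, 32.9% (31.3 to 34.4%) were in coding sequence, 60.5% in downstream and 6.56% in upstream untranslated regions. Over all nuclear protein-coding genes the shares were 79.0%, 14.7% and 1.40%, and 4.89% lay on noncoding isoforms. Counted by start positions, coding sequence held 44.99% (40.1 to 49.95%) in the factors and 63.5% in all such genes. Without Tfcp2l1 the coding share of the factors was 46.4% (44.5 to 48.5%) by reads, and in 36-base reads of all 10 it was 56.3% (51.7 to 60.8%).

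The coding share had its interval below 50% in 7 of the 8 factors with at least 50 sense reads, all but Pou5f1, against 37.8% of 6430 nuclear protein-coding genes. The downstream share had its interval above 50% in 5 of 8 (Sox2, Esrrb, Klf4, Klf5 and Tfcp2l1), against 23.5% of the genes. Pou5f1 was the exception, with 90.7% (87.5 to 93.3%) of its sense reads in a coding sequence that makes up 77.8% of its longest isoform. Zfp42 followed its lengths most closely: coding, upstream and downstream parts held 45.4%, 28.2% and 26.4% of the reads and make up 47.2%, 23.8% and 29.0% of the transcript. Tfcp2l1 had 99.5% of its sense reads downstream, in a region that is 83.4% of the transcript. Klf4 and Tbx3 had 55.2% and 58.6% of their sense reads downstream, in regions that are 32.4% and 33.6% of their transcripts. Esrrb and Klf5 lay nearer their lengths, with 60.5% and 57.65% downstream, in regions that are 61.01% and 50.9% of their transcripts. The coding shares of Esrrb and Klf5, 38.7% and 41.8%, were not below the 32.5% and 40.01% of the transcript that is coding. The length of these parts was not taken into account in the counts over genes.

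**Figure D4:**
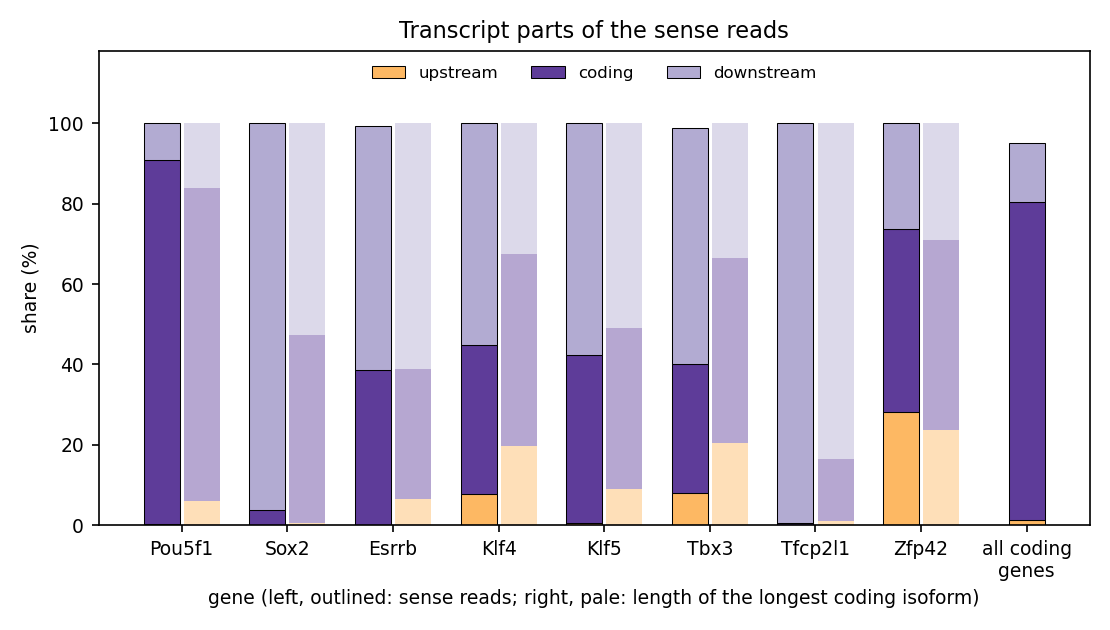
Share in percent of sense reads in upstream, coding and downstream parts of the transcript for the 8 factors with at least 50 sense reads (left bar of each pair, outlined) beside the share of the longest coding isoform that each part makes up (right bar, pale), with all nuclear protein-coding genes at the far right. Bars short of 100% lack the reads on noncoding isoforms. Pou5f1 is coding at 90.7%, Sox2 and Tfcp2l1 are downstream at 96.2% and 99.5%, and Zfp42 nearly matches its lengths.

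The arrangement of the antisense reads differed from factor to factor. Over the 10 factors 79.7% of them lay in coding sequence and 18.4% downstream, but without Klf5 39.1% (36.2 to 42.1%) were coding and 56.2% (53.2 to 59.2%) downstream. Over all nuclear protein-coding genes the antisense shares were 55.4% and 28.5%. Klf5 and Pou5f1 were coding at 98.3% and 99.7%, and Esrrb and Tfcp2l1 were mainly downstream. Only 9 of 3429 antisense reads on the longest coding isoforms began in the last 300 bases, 0.262%, against 29.4% of the 3416 sense reads there. Over all nuclear protein-coding genes these shares were 3.48% and 4.68%. All 9 were at 1 position of Klf5, and Tfcp2l1 gave 856 of the 1004 sense reads.

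Reads that match several genes were a large part for Nanog alone. Among sense reads that matched any factor, 83.3% also matched another gene, but 12.03% did so when Nanog was left out. Nanog shared 16797 sense reads and 6484 antisense reads, beside its 37 and 17 own, and 16759 of the former matched more than 10 other genes, at a median of 553. Up to 3 other genes were matched by 17 of the sense and 268 of the antisense reads, and more than 10 by 6120 of the latter. The stretch of Nanog that matches so widely lies in the downstream untranslated region: 70 of the 2178 34-base windows of its longest coding isoform match more than 10 other genes, all between bases 1228 and 1365, past the coding end at base 1133. The most frequent partners were Kctd3 with 16755 reads, Eapp with 16724 and Wdcp with 16716, and such reads cannot be assigned to Nanog.

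Pseudogenes were the most frequent sense partners of Zfp42, Klf5, Pou5f1 and Klf4, and coding genes those of Tfcp2l1 and Tbx3. Zfp42 shared 228 sense reads (26.8%) with Zfp42-ps1 on chromosome 15, which had 113 sense reads of its own at 6 positions and no antisense read. The Zfp42 site printed above, with 52 reads, was told from that copy by its single difference. Of the 624 sense reads given to Zfp42, 472 (75.6%) had no other annotated gene within 1 further mismatch. Klf5 shared 100 sense reads, of which 55 matched Gm6007, 22 Gga2 and 11 Ncam1. Pou5f1 shared 20 sense reads, 15 of them with Gm5712. Tfcp2l1 shared 112 sense and 46 antisense reads, with Fap and Gga3 the most frequent sense partners at 62 each and Mettl6 next at 53, and 80 of the 112 matched more than 10 other genes. Klf4 shared 5 sense reads, all with Gm48640, and Tbx3 shared 3, each with Wrb, Pitpnc1 and Med18. Sox2, Esrrb and Klf2 shared no sense read, and Esrrb shared 8 antisense reads with Srgap2.

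Some reads differed from the reference at the same base again and again. In Zfp42, G1350A (counted along the longest coding isoform, base 43295550 of chromosome 8, downstream of the coding sequence) was in 102 of 134 reads over that base, at 7 of 7 start positions, and G374T in 23 of 37 reads. In Esrrb, T3417A was in 11 of 16 reads. The labels give the cells a partly M. castaneus origin, and whether these are strain differences was not tested. At the 6 leading bases, mismatches fell from 24.6% at base 1 to 4.74% at base 6 in sense reads of the factors and from 19.7% to 2.62% in antisense reads, against 0.558% and 0.404% at the later bases.

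The table mixes reads of 36 and of 40 bases, 6252281 and 24772940 of them, and the labels do not say which libraries gave which. The antisense share of Klf5 was 85.5% in the former and 87.0% in the latter, with overlapping intervals. That of Pou5f1 was 43.4% and 49.6%, and that of Esrrb 61.9% (51.4 to 71.5%) and 49.6% (44.7 to 54.6%). Zfp42 had 12.3% and 5.95%, and Klf4 had 12.7% and 5.52%. The coding share of the sense reads of the 10 factors was 56.3% in 36-base and 30.3% in 40-base reads, so this value moved with the read length more than the strand of Klf5 did.

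Of 30 other transcription factors of the pluripotency network, 22 had at least 50 sense reads, against 29.3% of nuclear protein-coding genes, and the median of the 30 was 0.630 RPKM. The highest by sense reads were Zfp281, a zinc-finger partner of the core factors, with 11724 reads of which 6000 began at 1 position, the Ets factor Etv5 with 1343, the SCAN-domain factor Zscan10 with 971 and the Sox-family factor Sox15 with 700. Antisense reads prevailed, with the interval above 50%, in 5 of the 24 with at least 50 reads, against the 16.5% of nuclear genes given above, and the interval lay below 50% in 18, against 73.0%. The 5 were Utf1 at 88.2%, Mybl2 at 71.6% (1398 antisense and 554 sense reads), Zfx at 71.2%, Zfp143 at 63.5% and Tcf7l1, a repressor of the network, at 60.9%. Of these Mybl2 had the most antisense reads, still fewer than the 2374 of Klf5.

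Markers of other cell types were read beside the factors to check the labelled cell type. All 6 fibroblast markers had at least 50 sense reads, against 29.3% of nuclear protein-coding genes. They had between 327 for Thy1 and 5268 for Postn, with a median of 11.6 RPKM, above the 2.74 RPKM of the factors. Their part in the levels was not tested. The primitive endoderm factors Gata6 and Sox7 had 0 sense reads, Sox17 had 1 and Gata4 had 2, while Pdgfra, which fibroblasts also express, had 519. Trophectoderm and epiblast markers had medians of 0.0701 and 0.479 RPKM. At least 50 sense reads were found for 2 of the 5 trophectoderm markers (Tfap2c with 114 and Eomes with 61). The same held for 2 of the 4 epiblast markers (Otx2 with 133 and Dnmt3b with 91). The pluripotency factors were thus present in the pool, together with reads of fibroblast genes at a higher level.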

How the data were processed

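The deposited table has no header and lists every distinct sequence with an unscaled read count. The name of the deposited file hints at filters on reads, which no header or label describes, and no aligner is named. The genome build mm9 is named per the submitters' processing notes. No header or label ties the counts to a library, and the file's name was not taken as a label, so all counts were treated as 1 pool and the comparison of anti-Ezh2 with IgG and Ezh2 null cells was left out.

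Reads of at least 26 bases (31529044) lost 6 leading bases and were matched with bwa 0.7.19 (up to 2 mismatches, no gaps, at most 1000 placements) to the GENCODE M21 transcripts of GRCm38. A read was sense for a gene when its best placements were sense on that gene alone, apart from antisense placements on genes overlapping it on the other strand, and antisense when they were antisense on a single gene. Introns and intergenic sequence were not searched. Nuclear genes exclude the mitochondrial genome and the ribosomal loci Gm42418 and CT010467.1. The transcript part was decided at the middle base of the match, coding sequence first. RPKM was computed from the deposited counts over merged exons and searched reads. Intervals came from scipy 1.17.1. Named genes were all 10 factors, the 4 network factors with most sense reads and those with antisense intervals above 50%, overlapping genes, and the most frequent partners of shared reads. The genes and lists were chosen with earlier results of these data known.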

Additional observations from a re-analysis of the deposited data

How the results depend on the processing

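The antisense share of the 10 factors together, 50.1%, was 40.9% by distinct sequences, 37.9% by start positions, 51.4% without mismatches, 51.3% in 36-base and 52.3% in 40-base reads, 46.8% with no other gene within 1 further mismatch, 33.5% with reads of several genes included, 42.3% without the highest position of each strand and, chosen after seeing the data, 26.1% without Klf5. With reads of several genes included, 23335 of the 31164 reads were those of Nanog, at 27.9% antisense, most of them the widely matching reads that cannot be assigned to it. Klf5 stood at 85.3% in that setting. The number of factors with an antisense interval above 50% went from 1 to 2 by distinct sequences, start positions, 36-base reads, no other gene within 1 further mismatch, and without the highest positions. The coding share, 32.9%, was 45.6% by distinct sequences, 44.99% by start positions, 56.3% in 36-base and 30.3% in 40-base reads, 25.6% with no other gene within 1 further mismatch, 35.5% without the highest positions and, chosen after seeing the data, 46.4% without Tfcp2l1. The share of reads that also match another gene, 83.3%, was 72.6% by distinct sequences, 84.6% without mismatches, 82.6% and 84.7% in 36-base and 40-base reads and, chosen after seeing the data, 12.03% without Nanog. Single antisense shares crossed 50% for Nanog in 36-base reads (57.1%, 7 reads) and for Pou5f1 with no other gene within 1 further mismatch (54.4%) and with reads of several genes included (51.4%), and for Esrrb, whose interval spans 50%, without mismatches (49.4%) and in 40-base reads (49.6%). Klf5 stayed above 50% under all 9 alternatives run on single factors. The causes were not tested. No paired analysis was possible because the counts of the table are not tied to libraries. Depth limits Nanog, Klf2 and Tbx3, whose intervals are wide.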
